A study of Ciona robusta with 6 samples.

Results

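*Dmrt* (KH2012:KH.S544.3), *Foxc* (KH2012:KH.L57.25), *Foxg* (KH2012:KH.C8.774) and *Sp6/7/8/9* (KH2012:KH.C13.22) are 4 transcription factor genes of the territory that makes the palps and the anterior neural border in the ascidian *Ciona robusta*. They were chosen by name, as successive regulators of that territory and with earlier results of these data known, from the 16526 gene models counted. All 4 were among the 13641 models with enough reads to be tested. The count tables give KH gene IDs only, and the 4 names came with the choice of genes, since none of the IDs matched the RefSeq gene table used here (0 of 16526).

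The libraries were made from polyA RNA of wild-type embryos raised at 18°C, whose anterior neural plate (ANP) lineage was marked by electroporated *Dmrt>GFP* and collected by FACS as GFP+ cells. The 3 control libraries came from embryos with *Dmrt>GFP* alone, and the 3 *Lhx3/4* libraries from embryos with *Dmrt>GFP* and *Dmrt>Lhx3/4*, so that the regulatory DNA of *Dmrt* drove GFP in both groups and *Lhx3/4* in the second group alone. *Lhx3/4* is a LIM homeobox factor of the cardiopharyngeal lineage, and the comparison addresses what its misexpression does to the program of the ANP. Electroporated transgenes are taken up by only some cells of an embryo, and the libraries are labelled as biological replicates with no age of the embryos and no number of electroporations.

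In ascidians the ANP is set up by FGF signaling in a row of cells that express *Dmrt*, a gene of the doublesex-related family that is required for the lineage. After the row has divided, its anterior descendants form the palps, the adhesive sensory organs with which the larva settles, and the posterior descendants fold in to form the front of the brain. *Foxc*, a forkhead gene, acts downstream of *Dmrt* in the anterior descendants. *Foxg*, a second forkhead gene, marks the palp territory and neural border and depends on *Foxc*, and in vertebrates its homolog is a regulator of the telencephalon. *Sp6/7/8/9* encodes a zinc finger factor of the Sp family and was taken here as the last of the series. Its model is absent from the transcription factors that the study lists, and its name rests on the choice of genes alone. Whether reads of the transgenes were counted to the *Dmrt* model was not tested. The level of *Dmrt* was read in cells sorted for activity of its own regulatory DNA. How far the sort affected that level was not tested.

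Each library held 52637768 to 71200276 reads assigned to genes. Levels are given as CPM, counts scaled to a common total of assigned reads with TMM (trimmed mean of M-values) factors, with the SD over 3 libraries, and they carry no correction for gene length, so levels are not compared between genes. Calls required an adjusted p below 0.05 from edgeR's quasi-likelihood test, with Benjamini-Hochberg adjustment over the 13641 models, together with a change of 0.58 or more in log2 units. *Lhx3/4* itself (KH.S215.4) was at 30.1 to 53.2 CPM in the controls and at 541 to 644 CPM in the other group, with transgene and endogenous reads not told apart. Libraries of the same replicate number deviated together across genes, and a fit with the replicate number as a block is given where it changes a call.

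In the GFP+ cells of *Lhx3/4* embryos most of the *Foxg* RNA was gone, and *Sp6/7/8/9* could not be told from its controls. *Dmrt*, whose regulatory DNA marked the sorted cells, was also lower but far from lost. *Foxg* was left at 6.76% of its control level, *Foxc* at 33.3%, *Dmrt* at 42.3% and *Sp6/7/8/9* at 86.7%. *Foxg* and *Dmrt* fell, 2 of the 4 genes, while 2.92% of all tested genes were called lower and 1.85% higher by the same rule, and none of the 4 rose. Of the tested transcription factors that the study lists, 16.7% were called lower and 3.4% higher. The 4 genes were chosen with earlier results of these data known, so such shares are a background and not a test. *Foxc* passed only with the replicate block, which called 3 of the 4 lower against 6.94% of all tested genes (4.72% were higher), or with DESeq2, which called the same 3 lower against 5.47% (3.5% were higher). In 3 of the 4 genes every *Lhx3/4* library was below every control library, as in 10.6% of all tested genes, while in 10.9% every *Lhx3/4* library was above every control. In sorted bulk cells, fewer cells that express a gene and less RNA of it per cell cannot be told apart.

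**Figure D1:**
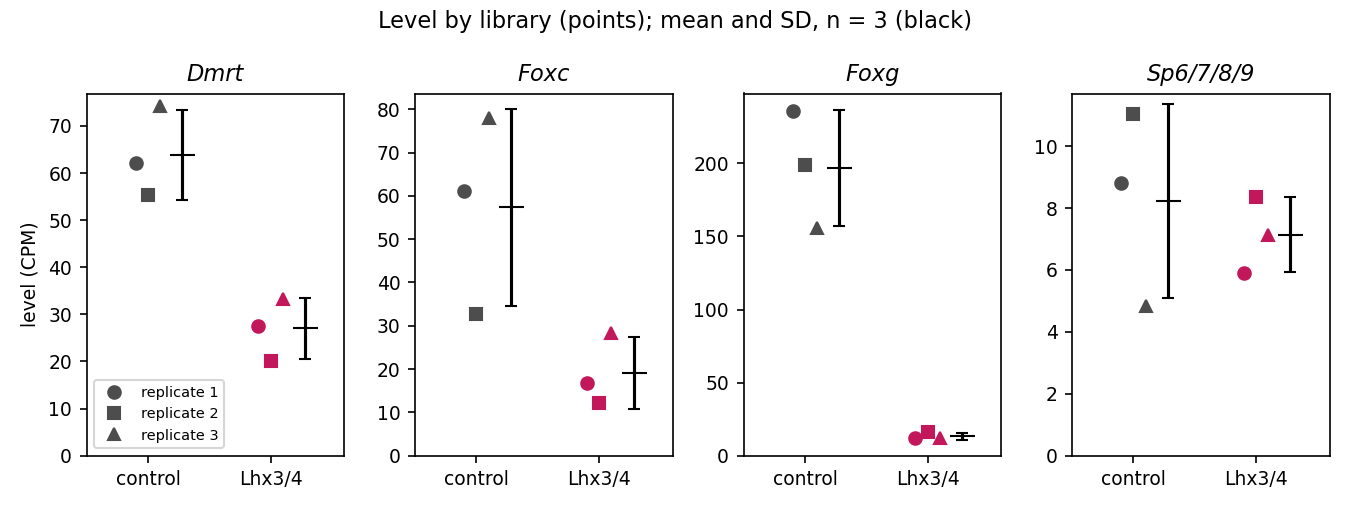
Level of each gene in CPM (vertical axes, linear and from 0, scaled per gene) in the 3 control and 3 *Lhx3/4* libraries, with one marker shape per replicate number and the mean and SD of each group in black. *Foxg* drops from 156 CPM or more to 16.2 CPM or less, the groups of *Dmrt* and *Foxc* are also separate, and those of *Sp6/7/8/9* overlap.

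*Dmrt*, the first gene of the series and the source of the driver, had 3619, 3349 and 4968 reads in control replicates 1, 2 and 3, or 62.1, 55.4 and 74.2 CPM. In the *Lhx3/4* libraries it had 1532, 1377 and 2422 reads, or 27.5, 20.2 and 33.3 CPM. The highest *Lhx3/4* library was thus well below the lowest control. Control libraries averaged 63.9 ± 9.53 CPM of *Dmrt* and *Lhx3/4* libraries 27.0 ± 6.56 CPM (SD over 3 libraries), and the gene fell by 1.24 on the log2 scale (edgeR adjusted p = 0.0208, standard error 0.22, 95% interval -1.77 to -0.72). The share of *Dmrt* that remained was 44.4%, 36.5% and 44.9% within replicate numbers 1, 2 and 3. Without control replicate 1, or without *Lhx3/4* replicate 1 or 2, the change stayed between -1.07 and -1.29 but the call was lost (adjusted p = 0.0514 to 0.0728 from edgeR). With the replicate block the adjusted p was 5.7e-04.

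*Foxc*, the forkhead gene next in the series, had 3569, 1983 and 5221 reads in control replicates 1, 2 and 3, or 61.2, 32.8 and 78.0 CPM. In the *Lhx3/4* libraries the counts were 935, 826 and 2068, or 16.8, 12.1 and 28.4 CPM. The groups were separate by a narrow margin, because control replicate 2 was the lowest control and *Lhx3/4* replicate 3 the highest of the other group. The means were 57.3 ± 22.8 and 19.1 ± 8.39 CPM (SD, n = 3 each), and the log2 fold change of -1.58 (standard error 0.41, 95% interval -2.53 to -0.64) did not pass the test over all genes (adjusted p = 0.0816 from edgeR). Held against the control of its own replicate number, each *Lhx3/4* library had 27.5%, 36.9% and 36.4% of the control level. The fit with the replicate block gave the same size of change, -1.59, with a standard error of 0.14 and an adjusted p of 3.9e-04, and *Foxc* was called lower. By DESeq2, without the block, the adjusted p was 8.3e-04.

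*Foxg*, the forkhead gene of the palps and anterior border, was counted 13729, 12013 and 10454 times in control replicates 1, 2 and 3, or 236, 199 and 156 CPM. In the *Lhx3/4* libraries 663, 1102 and 859 reads remained, or 11.9, 16.2 and 11.8 CPM. The 3 *Lhx3/4* libraries lay close together and far below any control. Control libraries averaged 197 ± 39.8 CPM of *Foxg* and *Lhx3/4* libraries 13.3 ± 2.48 CPM (SD over 3 libraries), 14.8-fold lower, and it fell by 3.89 on the log2 scale (edgeR adjusted p = 3.3e-04, standard error 0.22, 95% interval -4.41 to -3.36). The call held whichever library was left out, with changes of -3.76 to -4.05. *Foxg* was still detected after misexpression, and its smallest count, 663 reads, carries a counting error of 3.88%. Its fold change was the 75th lowest of the 13641 tested genes, and its p-value the 9th smallest.

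*Sp6/7/8/9*, the zinc finger gene, had 513, 668 and 324 reads in control replicates 1, 2 and 3, or 8.80, 11.0 and 4.84 CPM. The *Lhx3/4* libraries had 329, 569 and 520 reads, or 5.92, 8.34 and 7.14 CPM. All 3 *Lhx3/4* libraries lay within the range of the controls. Control libraries averaged 8.23 ± 3.14 CPM of *Sp6/7/8/9* and *Lhx3/4* libraries 7.13 ± 1.21 CPM (SD over 3 libraries), and the difference of -0.21 on the log2 scale was within the spread between libraries (edgeR adjusted p = 0.862, standard error 0.36). The 95% interval of this ratio, from 0.484 to 1.55 times the control level, allows a fall as well as a rise, so the data do not show that the gene kept its level. Within replicate numbers 1 and 2 the *Lhx3/4* library had 67.2% and 75.5% of the control level, and within number 3 it had 148%, so the direction was not shared. The smallest count, 324 reads, has a counting error of 5.56%, while the controls varied by 38.2% (coefficient of variation), so that the spread between libraries, and not the depth, set the precision.

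**Figure D2:**
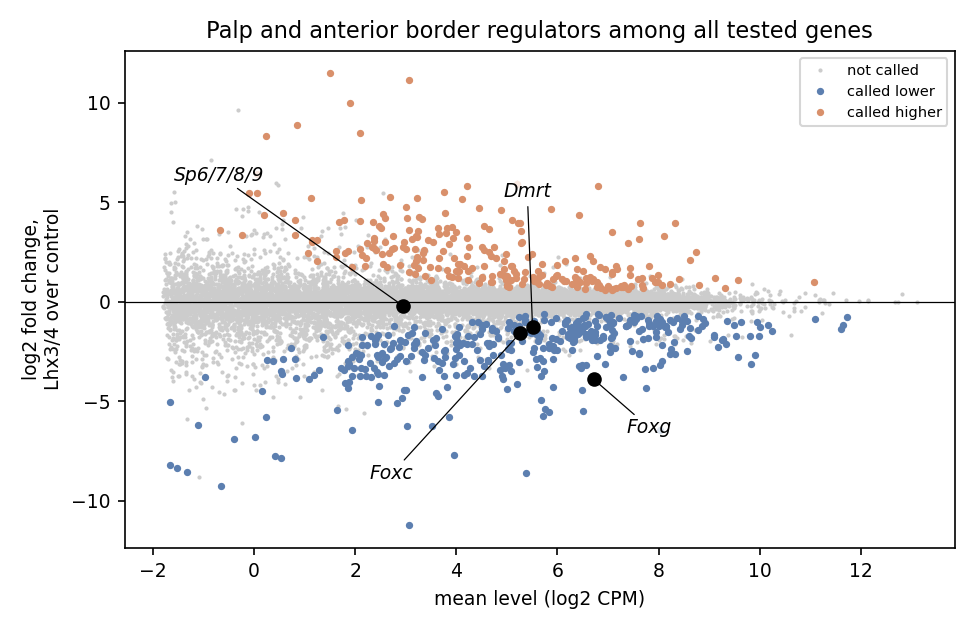
Log2 fold change (*Lhx3/4* over control, vertical axis) against the mean level in log2 CPM (horizontal axis) for the 13641 tested genes, with called genes in color and the 4 palp and border regulators in black. *Foxg*, at -3.89, lies far below most genes of its level, *Dmrt* at -1.24 and *Foxc* at -1.58 lie close to each other below 0, and *Sp6/7/8/9* at -0.21 lies in the body of genes that were not called.

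By point estimate alone, the genes did not rank in the order of the series, where the last place of *Sp6/7/8/9* was assumed. No test established the ranking. From most to least reduced the order was *Foxg*, *Foxc*, *Dmrt* and *Sp6/7/8/9*, whereas in the series *Foxg* comes after *Foxc* and before *Sp6/7/8/9*. To ask whether one gene moved more than another, the log2 ratio of the read counts of each pair was taken within every library, which cancels library scaling and gene length, and compared between groups over the 6 pairs (exact permutation test, two-sided). With 3 libraries a group the smallest p such a test can give is 0.1, before or after adjustment over the 6 pairs, so no pair could pass. With libraries paired by replicate number, the exact test over the 3 differences cannot go below 0.25.

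Between *Foxc* and *Dmrt*, neighbors in the order, the difference was small. Their log2 ratio was -0.02, -0.76 and 0.07 in control replicates 1, 2 and 3 and -0.71, -0.74 and -0.23 in the *Lhx3/4* libraries, and the groups overlapped. *Foxc* was lower relative to *Dmrt* by 0.32 on the log2 scale (standard error 0.31, exact permutation p = 0.4, adjusted 0.4), close to the standard error, and within replicate numbers 1, 2 and 3 the difference was -0.69, 0.02 and -0.30 (exact permutation p = 0.5 with the pairs).

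*Foxg* had ratios to both upstream genes that were separate between the groups, a shift that the exact test could not call. Its log2 ratio to *Dmrt* was 1.92, 1.84 and 1.07 in the controls and -1.21, -0.32 and -1.49 with *Lhx3/4*, lower in each *Lhx3/4* library than in any control. The difference was -2.62 (standard error 0.45, exact permutation p = 0.1, adjusted 0.15), a 6.15-fold shift of the ratio. Against *Foxc* the difference was -2.30 (standard error 0.67, exact permutation p = 0.1, adjusted 0.15), with no overlap between the groups, and within replicate numbers it spanned -2.44 to -2.18 (standard error 0.075 over the pairs).

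The ratios of *Sp6/7/8/9* to the other genes were higher with *Lhx3/4*, where those genes were lower and *Sp6/7/8/9* itself did not pass the test. Its ratio to *Foxg* was -4.74, -4.17 and -5.01 in the controls and -1.01, -0.95 and -0.72 with *Lhx3/4*, a difference of 3.74 (standard error 0.26, exact permutation p = 0.1, adjusted 0.15), or a 13.4-fold shift. Over the pairs the standard error of that difference was 0.31, so pairing did not narrow it. Relative to *Dmrt*, *Sp6/7/8/9* was higher by 1.12 (standard error 0.57, exact permutation p = 0.1, adjusted 0.15), with the groups separate but neighboring. Relative to *Foxc* the difference was 1.45 (standard error 0.82, exact permutation p = 0.2, adjusted 0.24), and there the groups overlapped. Within replicate numbers 1, 2 and 3 that difference was 1.29, 1.03 and 2.02, all of one sign, with a standard error of 0.29 over the pairs.

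**Figure D3:**
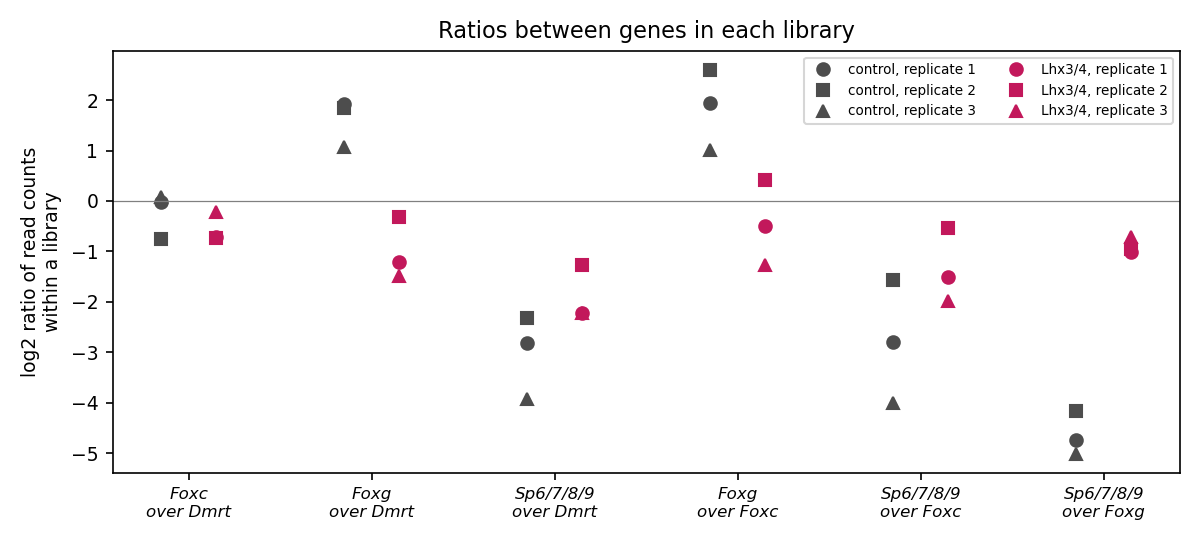
Log2 ratio of the read counts of each pair of genes within each library (vertical axis), with controls in gray and *Lhx3/4* libraries in magenta and one marker shape per replicate number. The groups overlap for *Foxc* over *Dmrt* and for *Sp6/7/8/9* over *Foxc*, and are separate for the other 4 pairs, most widely for *Sp6/7/8/9* over *Foxg*, at -4.17 or less in controls and -1.01 or more with *Lhx3/4*. The pairs share genes and are not independent, and the share of all gene pairs that separate was not computed.

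The genes also differed in how their libraries varied within a group. *Dmrt* and *Foxc* shared one pattern, in which replicate 2 was lowest and replicate 3 highest in both groups. For *Foxc* the deviations from the group mean were 0.18, -0.72 and 0.53 on the log2 scale in control replicates 1, 2 and 3, and -0.09, -0.57 and 0.66 in the *Lhx3/4* libraries. For *Dmrt* they were smaller, from -0.20 to 0.23 in controls and from -0.39 to 0.33 with *Lhx3/4*. Over the 6 libraries the log2 CPM of *Dmrt* and *Foxc* correlated at r = 0.96, a description that holds both the group difference and the shared replicate numbers.

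*Foxg* and *Sp6/7/8/9* did not follow that pattern. Control replicate 3, the highest control for *Dmrt* and *Foxc*, was the lowest for *Foxg* (-0.31) and for *Sp6/7/8/9* (-0.68). Among the *Lhx3/4* libraries replicate 2, the lowest for *Dmrt* and *Foxc*, was the highest for *Foxg* (0.30) and for *Sp6/7/8/9* (0.24). Over the 6 libraries *Foxg* correlated with *Dmrt* at r = 0.89 and with *Foxc* at r = 0.80, and *Sp6/7/8/9* with *Dmrt*, *Foxc* and *Foxg* at r = -0.06, -0.21 and 0.26. The pooled SD within groups was 0.63 for *Foxc* and 0.47 for *Sp6/7/8/9*, above the median of 0.34 over all tested genes, and 0.30 for *Dmrt* and 0.28 for *Foxg*, below it.

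**Figure D4:**
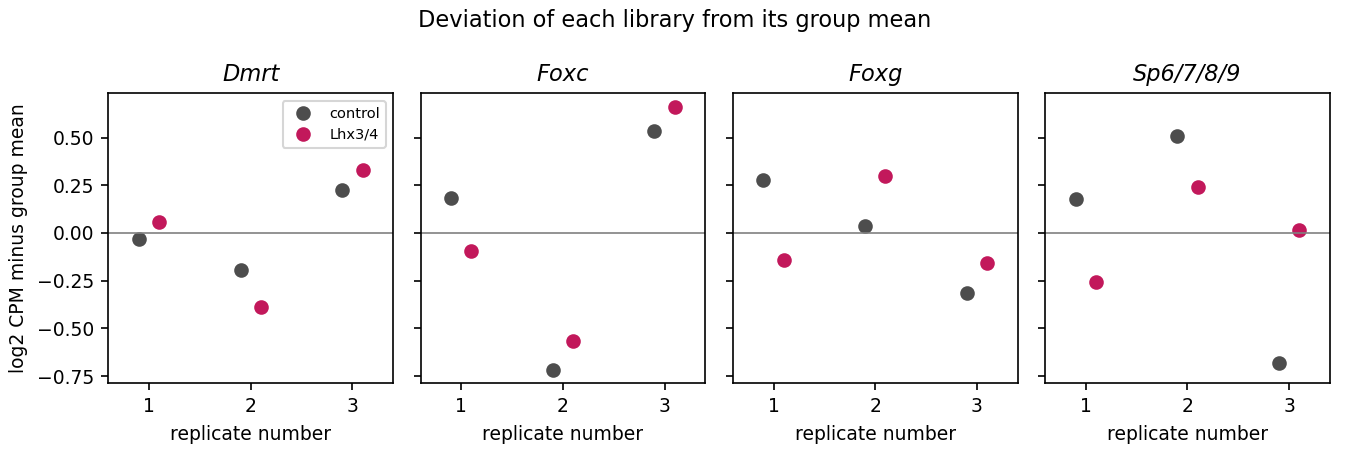
Deviation of each library from the mean of its own group in log2 CPM (vertical axis) by replicate number (horizontal axis), with controls in gray and *Lhx3/4* libraries in magenta. For *Dmrt* and *Foxc* replicate 2 is lowest and replicate 3 highest in both groups, and for *Sp6/7/8/9* the control of replicate 3 is the lowest point, at -0.68.

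**Figure D5:**
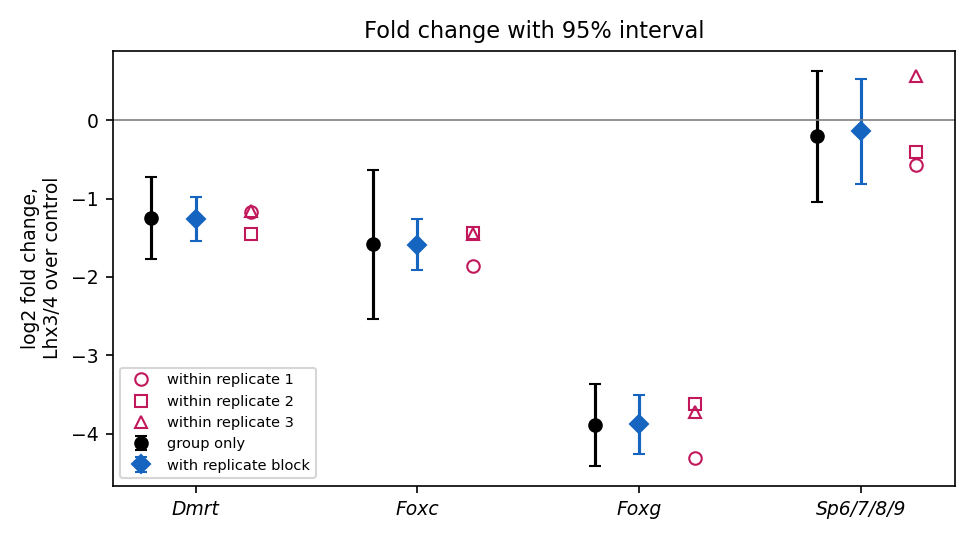
Log2 fold change of each gene (*Lhx3/4* over control, vertical axis) with its 95% interval from the fit by group only (black) and from the fit with the replicate block (blue), beside the difference within each replicate number (open symbols). The block narrows the interval of *Foxc* from -2.53 to -0.64 down to -1.91 to -1.27, and all 3 within-number differences of *Dmrt*, *Foxc* and *Foxg* are negative, while those of *Sp6/7/8/9* lie on both sides of 0.

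Among the wider set of transcription factors that the study lists by annotation, 294 were tested, of which 49 were called lower (16.7%, against 2.92% of all tested genes) and 10 higher (3.4%, against 1.85%). With the replicate block 72 were called lower and 30 higher, and by DESeq2 67 and 22. This list holds *Dmrt*, *Foxc* and *Foxg* but not *Sp6/7/8/9*. The median log2 fold change over the list was -0.09, against 0.01 over all tested genes. By fold change *Foxg* was the 8th lowest of the 294, *Foxc* the 63rd and *Dmrt* the 77th.

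Other ANP genes with a name paired in the paper were reduced to shares on both sides of that of *Foxg*, and all 5 fell. These genes had been selected in the paper as changed in these same samples, so neither their direction nor the size of their fall is independent evidence. *Onecut*, a homeobox regulator of the ANP, was left at 5.04% of its control level, the homolog of the homeobox gene *MSX2* at 7.28%, and *Six3/6*, a homeobox regulator of the anterior brain, at 9.95%. The homolog of the zinc finger gene *ZIC4* was left at 13.6%, with reads that near-identical copies may share, and *Tyrp-1*, a pigment synthesis gene, at 1.15%. *Dmrt* at 42.3% and *Foxc* at 33.3% kept larger shares than any of these 5 genes. No difference was tested, and the 5 were picked as changed, so the contrast does not show that *Dmrt* and *Foxc* were spared.

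The genes of other lineages named here are those that the paper names and pairs with a KH model. They were picked there with these samples in view and do not stand for their lineages as a whole, whose other genes were not examined as groups here. *Foxf* (KH.C3.170), a forkhead gene of the cardiopharyngeal lineage and so of the same family as *Foxc* and *Foxg*, was at 44.4, 55.4 and 21.8 CPM in control replicates 1, 2 and 3 and at 169, 182 and 149 CPM with *Lhx3/4*, and it rose 4.11-fold. In the *Lhx3/4* libraries *Foxf* thus stood above its controls while *Foxg* stood below, with each gene's groups separate. The summed level of *Foxf*, *Hand.r* and *Irxb*, of which 2 of 3 rose (all 3 with the replicate block, where *Hand.r* had an edgeR adjusted p of 0.0201), was 37.5 to 82.0 CPM in controls and 216 to 298 CPM with *Lhx3/4*. That of the motor ganglion genes *Nkx6* and *Vsx*, of which 1 of 2 rose (both with the replicate block, where *Vsx* had an edgeR adjusted p of 0.0228), was 1.54 to 3.24 and 9.19 to 25.8 CPM. None of these markers was at 0 over all libraries, but *Vsx* had 6, 4 and 0 reads in control replicates 1, 2 and 3. *Nkx6* made up most of the motor ganglion sum, with means of 2.15 CPM in controls and 13.8 CPM with *Lhx3/4*. *Vsx* had means of 0.056 and 1.44 CPM. *Hand.r*, with means of 2.05 and 7.83 CPM, was a small part of its sum with *Foxf* and *Irxb*. The part of a change in the mix of sorted cells in the fall of *Foxg* and *Dmrt* was not tested. The ANP genes *Dmrt*, *Onecut*, *Six3/6* and *Tyrp-1* together summed to 1202 to 1603 CPM in controls and to 82.5 to 118 CPM with *Lhx3/4*. *Onecut*, *Six3/6* and *Tyrp-1*, selected in the paper as changed, make up most of the control sum (means of 412, 429 and 513 CPM, against 63.9 for *Dmrt*). The sum therefore does not stand for the ANP program as a whole.

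Among 61 other tested genes with a paired name, those most like each regulator over the 6 libraries were found by Pearson correlation of log2 CPM. Nearly all of these names come from the paper's lists of changed genes, so the candidates are not a neutral set. *Foxg* was most like the homolog of *PRICKLE2*, a planar cell polarity gene (r = 0.99), and *Onecut* (r = 0.99), with 29 and 31 of the 13640 other tested genes correlating more highly. Such an r holds the group difference as well as the variation within groups. In control replicates 1, 2 and 3 the log2 deviations of *Foxg* from its group mean were 0.28, 0.03 and -0.31. Those of *Onecut* were -0.17, -0.08 and 0.25, in the opposite order. Among the *Lhx3/4* libraries replicate 2 was the highest for both genes. *Dmrt* was most like the homolog of *TRIM2*, a ubiquitin ligase gene (r = 0.98), and then *Foxc* itself. *Foxc* was most like *Dmrt* and then the homolog of *GRM5*, a glutamate receptor gene (r = 0.92). Among these candidates *Sp6/7/8/9* had no close partner, its best being the homolog of *SASS6*, a centriole assembly gene (r = 0.44), a value exceeded by 3116 other tested genes. Since *Sp6/7/8/9* was not called and most candidates had been picked as changed, a low best value says little about its partners.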

How the data were processed

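The authors deposited raw HTSeq counts per KH2012 gene model, from paired-end reads placed on the ci3 assembly by HISAT2. Their versions and the strand setting were, in the sources used here, not given. A deposited table of the authors' DESeq2 comparison (means, fold changes, p-values) was not used. The 5 HTSeq summary lines (28.5% to 38.2% of each table) were left out. Models whose reads summed to 100 or more in the 6 libraries were tested with edgeR 4.0.16 (R 4.3.3) after TMM normalization. Standard errors were derived from the F statistic, and 95% intervals from its degrees of freedom. DESeq2 1.42.0 was an alternative. Ratios used a prior count of 0.5.

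Deviations from group means correlated at 0.51, 0.41 and 0.50 between libraries of the same number, and at -0.31 to -0.17 otherwise. Deviations within a group sum to 0, so positive values at the same number bring negative values elsewhere by construction. The numbers were therefore taken as pairs in the fit with the block, from the data, since the labels tie no number to a day. Libraries of a group differed beyond sampling noise. The labels call them biological replicates without naming separate electroporations, so p-values cover the variation among these 6 libraries. Counting errors cover sampling of reads only.

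The steps were tested on simulated data without a replicate effect, so the block was not tested on paired libraries. There edgeR recovered 32 of 95 changes of 2-fold and 72 of 100 of 4-fold, with 4 false calls. With the block it recovered 29 and 71, with 1 false call, and DESeq2 recovered 37 and 82, with 25. The 4 genes and all lists were chosen with earlier results of these data known. Library preparation differs between the labels, which name an ultra-low input kit from NEB, and the paper, which names SMART-Seq HT. Named genes are the 4 regulators, *Lhx3/4*, ANP and other-lineage genes that the paper pairs with a KH model, and for each regulator the 2 most similar of the 62 tested genes with a paired name (65 names, itself left out). Levels of different genes were not compared per length, as no lengths of these models were used.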

Additional observations from a re-analysis of the deposited data

How the results depend on the processing

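*Dmrt*, *Foxc* and *Foxg* were lower with *Lhx3/4* under every alternative run. Without each library in turn, the log2 fold changes spanned -1.42 to -1.07 for *Dmrt* (edgeR adjusted p = 0.0304 to 0.0728, past the threshold in 3 of 6), -1.99 to -1.30 for *Foxc*, -4.05 to -3.76 for *Foxg* and -0.48 to 0.064 for *Sp6/7/8/9*, whose sign turned without control replicate 2 (0.064). *Foxc* passed with the replicate block (-1.59) and by DESeq2 (-1.60), and the block changed no other call among the 4 genes, while *Hand.r* and *Vsx* also passed with it and by DESeq2 but not with group alone in edgeR. Other normalizations and filters changed none of the calls of the 4 genes, and their effect on *Hand.r* and *Vsx* was not examined. Over all tested genes, 644 were higher and 947 lower with the replicate block, and 478 and 746 by DESeq2, against 252 and 398. Among transcription factors 30 and 22 were higher, against 10. Leaving out each library gave 147 to 305 higher and 246 to 426 lower genes (246 without control replicate 2 and 265 without *Lhx3/4* replicate 3), and 5 to 14 higher transcription factors. The cause of these shifts was not tested. Ratios between genes kept their direction with a prior count of 2 and without any one library, and library scaling cancels in them by construction. Each gene had at least 324 reads per library, so the spread between libraries limits the precision rather than depth.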
